A study of Homo sapiens with 12 samples.

Results

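The RNA levels of 8 genes, NFKB1, NFKB2, RELA, RELB, NFKBIA, NFKBIE, TNFAIP3 and BIRC3, were followed across the 4 groups of an RNA-seq experiment in renal carcinoma cells. They are 4 of the subunits of the transcription factor NF-kB and 4 of the genes that NF-kB itself induces to restrain or tune its own activity. The members were chosen by gene name, 8 of the 38021 gene names in the table, and all 8 had enough counts to be tested. They and the gene lists used below were chosen with earlier results of these data known. The cells were 786-O, a clear cell renal carcinoma line without functional VHL, and WT8, a derivative of 786-O that expresses wildtype VHL, the ubiquitin ligase subunit that targets HIF alpha proteins for degradation. Each line had been infected with a lentiviral pLKO.1 vector that carried either a scrambled control shRNA (shControl) or an shRNA against the clock transcription factor BMAL1 (shBMAL1), and all cells of all 4 groups were kept in puromycin. Each group had 3 libraries labelled as biological replicates, so the p-values measure the spread between these cultures. BMAL1 was depleted with 1 shRNA, and WT8 differs from 786-O by its derivation as well as by VHL, so effects of the hairpin's target and other targets, or of VHL and the history of the line, cannot be told apart. In bulk RNA, fewer expressing cells and less RNA per cell also cannot be told apart.

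NF-kB dimers are held in the cytoplasm by inhibitory IκB proteins. Signals from cytokine and pattern recognition receptors activate IκB kinases, the inhibitors are degraded, and the dimers enter the nucleus and bind κB sites, among them sites in the promoters of their own inhibitors, which ends the response. RELA, bound to the processed NFKB1 product, is the main dimer of the canonical pathway, and RELB, bound to the processed NFKB2 product, is that of the noncanonical pathway. NFKBIA and NFKBIE encode IκB proteins, TNFAIP3 encodes a ubiquitin-editing enzyme that dampens signalling at the receptor, and BIRC3 encodes a ubiquitin ligase that acts in TNF receptor complexes and limits noncanonical signalling.

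The promoter sequences show which of the 8 genes carry letters that match a κB site. RefSeq promoters (GRCh38.p14, 250 bases before to 50 bases after each annotated start) matched 6 of the genes with 10 starts. Of these, 5 genes and 6 of the 10 promoters held the NF-kB consensus on either strand, and RELA held none in either of its promoters. Of all 35114 RefSeq promoters, 11.27% held it. The windows below are shown because they hold these matches. Each runs 5′ to 3′ on the strand of its gene, with the match in capitals and 9 flanking bases on each side.

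NFKB1, chr4:102501301-102501328, plus strand: gacgtcagtGGGAATTTCCagccaggaa
NFKB2, start 2, chr10:102394462-102394490, plus strand: aaacgtcatGGGAATTCCCCcctccgggg
NFKB2, start 2, chr10:102394491-102394518, plus strand: ggccgagaaGGGGCTTTCCcggccctga
NFKB2, start 3, chr10:102395520-102395547, plus strand: acccccaccGGGGCTTCCCggattctcc
NFKB2, start 3, chr10:102395675-102395702, plus strand: ggtattttcGGGACTTTCCtaagctgct
NFKBIA, chr14:35404812-35404839, minus strand: gactggcttGGAAATTCCCcgagcctga
TNFAIP3, chr6:137867183-137867222, plus strand: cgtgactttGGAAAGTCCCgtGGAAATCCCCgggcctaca
BIRC3, chr11:102317276-102317303, plus strand: ttgggtcatGGAAATCCCCgagtgggtt
BIRC3, chr11:102317340-102317367, plus strand: attaccgctGGAGTTCCCCtaagtccta

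The NFKB1 match began 49 bases before the start and that of NFKBIA 81 bases before it. TNFAIP3 held 2 matches that lay next to each other, and in the first NFKB2 window 2 matches overlapped. The E-box CACGTG is the element bound by dimers of BMAL1 with its clock partner CLOCK. It occurred in 7.256% of all promoters and in 1 of the 10 promoters of the 6 genes, that of TNFAIP3. The core letters of the hypoxia response element, ACGTG or GCGTG on either strand, occurred in 48.45% of all promoters and in 6 of these 10, a share near that of all promoters. ACGTG is contained in the E-box, so the TNFAIP3 match counts for both. A match is a run of letters and was not measured as a binding site here.

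**Figure D1:**
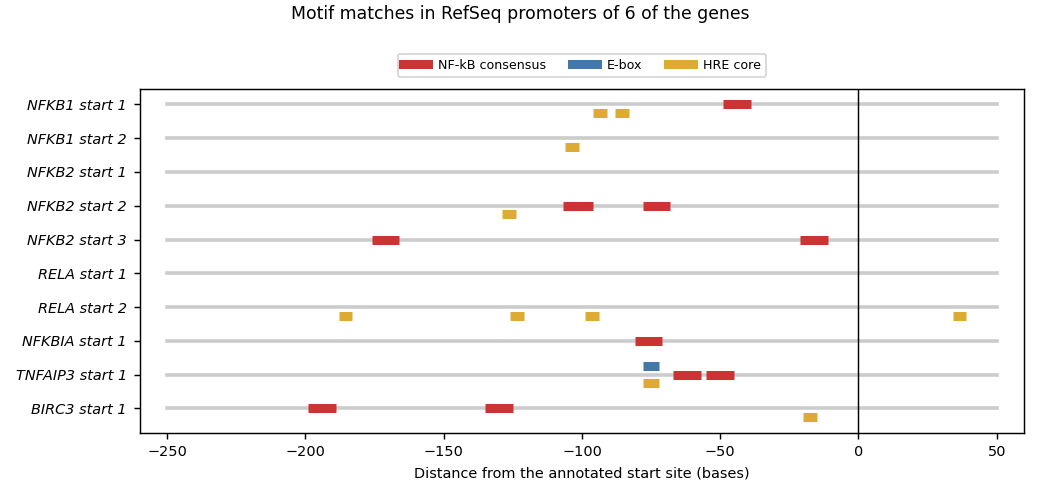
Motif matches in the 10 RefSeq promoters of 6 of the genes, drawn by distance in bases from the annotated start site, with grey lines for the promoters searched and coloured bars for the NF-kB consensus (red), the E-box (blue) and the hypoxia response element core (HRE core, yellow). Matches of the NF-kB consensus lie in 6 of the 10 promoters, and the only E-box is in TNFAIP3.

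The libraries held 33182025 to 36477509 counts. Levels are given as CPM, the count relative to the library total, scaled with edgeR's TMM factors. The target of the shRNA, listed under its older symbol ARNTL, fell from 12.1 to 3.94 CPM in 786-O and from 9.24 to 1.66 CPM in WT8. VHL had 18.8 CPM in 786-O and 981 CPM in WT8 with shControl, and 647 CPM in WT8 with shBMAL1. Of the renal epithelial markers, PAX8 (10745 to 50597 counts) and KRT8 (15218 to 30363) were abundant in all libraries. PAX2 (351 to 1002 counts), CDH16 (309 to 2777) and LHX1 (65 to 477) had fewer. CA9, usually high in clear cell carcinoma, had 0 to 49 counts, and the leukocyte genes PTPRC and CD3E had 0 to 1 and 0 counts. The summed level of the 6 leukocyte markers, nearly all of it CD68, was highest in 786-O shControl (41.1 to 43.2 CPM), followed by 786-O shBMAL1 (31.9 to 36.3 CPM), WT8 shControl (26.0 to 32.2 CPM) and WT8 shBMAL1 (17.7 to 22.2 CPM). The 13 mitochondrial protein genes took 2.85 to 3.26% of the counts in 786-O shControl and 2.95 to 3.52% with shBMAL1, and 3.91 to 4.29% and 3.38 to 4.19% in the same groups of WT8. The summed renal epithelial markers ran from 5517 to 5957 CPM in 786-O, and in WT8 from 4384 to 4414 CPM with shControl and 3424 to 3551 with shBMAL1. VIM, with 67002 to 160751 counts, had the most counts of these markers in every library and so weighs most in this sum. The 6 fibroblast markers summed to 10.6 to 12.7 CPM in 786-O, and in WT8 to 3.02 to 3.45 CPM with shControl and 8.75 to 9.72 with shBMAL1. Among them COL1A1 had 62 to 332 counts and LUM 12 to 278. COL3A1, COL1A2, PDGFRA and DCN had at most 27, 17, 15 and 2 counts. The 5 endothelial markers summed to at most 1.74 CPM. What part these differences had in the results was not tested.

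Per kilobase of the canonical transcript, NFKB2 was the most abundant of the 8 and TNFAIP3 the least in every group. In 786-O shControl the order was NFKB2 with 94.6 ± 0.847 CPM per kb (SD, n = 3), NFKBIA with 61.8 ± 0.686, RELA with 39.5 ± 0.251, NFKB1 with 33.3 ± 0.535, RELB with 23.6 ± 1.65, NFKBIE with 21.8 ± 0.720, BIRC3 with 12.8 ± 0.415 and TNFAIP3 with 9.34 ± 0.464 CPM per kb. Only RELB and NFKBIE overlapped among these neighbours. The first 4 places were the same in all 4 groups. In WT8 shControl NFKBIE, with 24.7 ± 1.19 CPM per kb, stood before RELB with 18.0 ± 1.11 and overlapped with NFKB1 at 26.6 ± 1.02. In both shBMAL1 groups no neighbours overlapped, and TNFAIP3 had 6.35 ± 0.132 CPM per kb in 786-O and 2.61 ± 0.196 in WT8. Which transcripts the authors' counts were drawn from is not stated, so the order rests on the annotated length.

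To see what BMAL1 depletion did to the subunits, the 4 genes were taken first. NFKB2 lost nearly the same share of its RNA in both lines, RELA fell in WT8, NFKB1 fell a little in 786-O, and RELB moved little. NFKB1 (chromosome 4, 103422487 to 103538459 on GRCh37, plus strand) had 133, 137 and 135 CPM in the 786-O shControl libraries and 116, 120.5 and 114 CPM with shBMAL1. Its WT8 libraries had 109, 112 and 104 CPM with shControl and 113, 118 and 112 CPM with shBMAL1. The 786-O groups did not overlap, while those of WT8 did. The log2 change of NFKB1 with shBMAL1 was -0.21 in 786-O (SE 0.05, edgeR adjusted p 2.88e-04) and 0.08 in WT8 (SE 0.05, 95% interval -0.01 to 0.17, adjusted p 0.128), where it was not called. It was called in WT8 when only the WT8 libraries were fitted (0.11), without WT8 shControl replicate 2 (0.10) and without WT8 shBMAL1 replicate 3 (0.10).

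NFKB2 (chromosome 10, 104153867 to 104162281, plus strand) had 285, 283 and 288 CPM in 786-O shControl and 187, 195 and 207 CPM in 786-O shBMAL1. In WT8 it had 277, 258 and 268 CPM with shControl and 180.3, 182 and 185 CPM with shBMAL1. In both lines every shBMAL1 library lay below every shControl library. The log2 change was -0.54 in 786-O (SE 0.04, edgeR adjusted p 1.30e-12) and -0.55 in WT8 (SE 0.04, adjusted p 1.35e-13). In percent, NFKB2 fell by 31.1% and by 31.8%.

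RELA (chromosome 11, 65421070 to 65430561, minus strand) had 100.1, 99.5 and 98.8 CPM in 786-O shControl and 92.9, 98.6 and 106 CPM in 786-O shBMAL1. The WT8 libraries had 128, 118 and 127 CPM with shControl and 89.7, 89.4 and 95.4 CPM with shBMAL1. Only in WT8 did the 2 groups stand apart, and the difference between the lines is tested below. The log2 change in 786-O was -0.00 (95% interval -0.11 to 0.10, edgeR adjusted p 0.962), and that in WT8 was -0.44 (SE 0.05, adjusted p 1.37e-09). RELB (chromosome 19, 45504719 to 45541450, plus strand) had 57.6, 51.6 and 50.7 CPM in 786-O shControl and 49.8, 51.3 and 47.3 CPM with shBMAL1. In WT8 it had 43.5, 38.8 and 39.8 CPM with shControl and 37.3, 36.2 and 37.2 CPM with shBMAL1. RELB was lower in every WT8 library than in any 786-O library. Its log2 change was -0.11 in 786-O (95% interval -0.23 to 0.02, edgeR adjusted p 0.168), which was not called, and -0.14 in WT8 (SE 0.06, adjusted p 0.0494). The call in WT8 was lost with no filter on low counts (-0.13), when only the WT8 libraries were fitted (-0.11), without WT8 shControl replicate 1 (-0.09) and without WT8 shBMAL1 replicate 2 (-0.12), and a call in 786-O appeared without 786-O shControl replicate 3 (-0.15).

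The 4 feedback genes all fell with shBMAL1 in both lines, where 24.4% of all genes tested fell in 786-O and 36.9% in WT8. NFKBIA (chromosome 14, 35870285 to 35873955, minus strand), which encodes IκBα, had 96.0, 95.5 and 97.6 CPM in 786-O shControl and 76.9, 84.0 and 79.4 CPM in 786-O shBMAL1. NFKBIA in WT8 had 119, 115 and 118 CPM with shControl and 75.5, 72.3 and 70.3 CPM with shBMAL1. In both lines the groups were apart, and WT8 shControl was the highest of the 4 groups. The log2 change of NFKBIA was -0.27 in 786-O (SE 0.05, edgeR adjusted p 2.18e-05) and -0.69 in WT8 (SE 0.05, adjusted p 5.00e-15). NFKBIE (chromosome 6, 44225903 to 44233525, minus strand), which encodes IκBε, had 53.2, 50.1 and 50.4 CPM in 786-O shControl and 40.1, 43.6 and 45.3 CPM in 786-O shBMAL1. Its levels in WT8 were 56.6, 56.0 and 61.1 CPM with shControl and 27.3, 28.1 and 26.9 CPM with shBMAL1. All 3 shBMAL1 libraries were lower in each line, and those of WT8 were the lowest of the experiment. The log2 change of NFKBIE was -0.25 in 786-O (SE 0.06, edgeR adjusted p 8.97e-04) and -1.08 in WT8 (SE 0.06, adjusted p 2.41e-17). In percent, NFKBIE fell by 16.0% in 786-O and fell by 52.6% in WT8.

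TNFAIP3 (chromosome 6, 138188351 to 138204451, plus strand) had 41.1, 44.5 and 45.1 CPM in 786-O shControl and 29.7, 29.0 and 30.2 CPM in 786-O shBMAL1. In WT8 it had 28.0, 29.7 and 29.8 CPM with shControl and 12.2, 11.3 and 13.1 CPM with shBMAL1. The shBMAL1 level of 786-O thus overlapped with the shControl level of WT8, and the shBMAL1 libraries of WT8 were far below both. The log2 change of TNFAIP3 was -0.56 in 786-O (SE 0.07, edgeR adjusted p 2.56e-08) and -1.26 in WT8 (SE 0.07, adjusted p 5.31e-17). In WT8 it had the largest change of the 8 genes, and 84.0% of all genes tested had a smaller one in either direction. BIRC3 (chromosome 11, 102188215 to 102210134, plus strand) had 90.3, 84.6 and 88.1 CPM in 786-O shControl and 53.1, 53.3 and 55.0 CPM in 786-O shBMAL1. Its WT8 libraries had 93.8, 101 and 89.4 CPM with shControl and 65.0, 65.9 and 63.6 CPM with shBMAL1. The groups were apart in both lines. The log2 change of BIRC3 was -0.70 in 786-O (SE 0.05, edgeR adjusted p 1.51e-13), the largest of the 8 genes in that line, and -0.55 in WT8 (SE 0.05, adjusted p 1.42e-11). RELA, TNFAIP3 and BIRC3 share 103, 95 and 126 exon bases with noncoding genes on the opposite strand, and whether counting used strand is not stated, so reads of the 2 genes of each pair cannot be told apart there. The same holds for ARNTL with 421 and VHL with 1173 such bases.

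**Figure D2:**
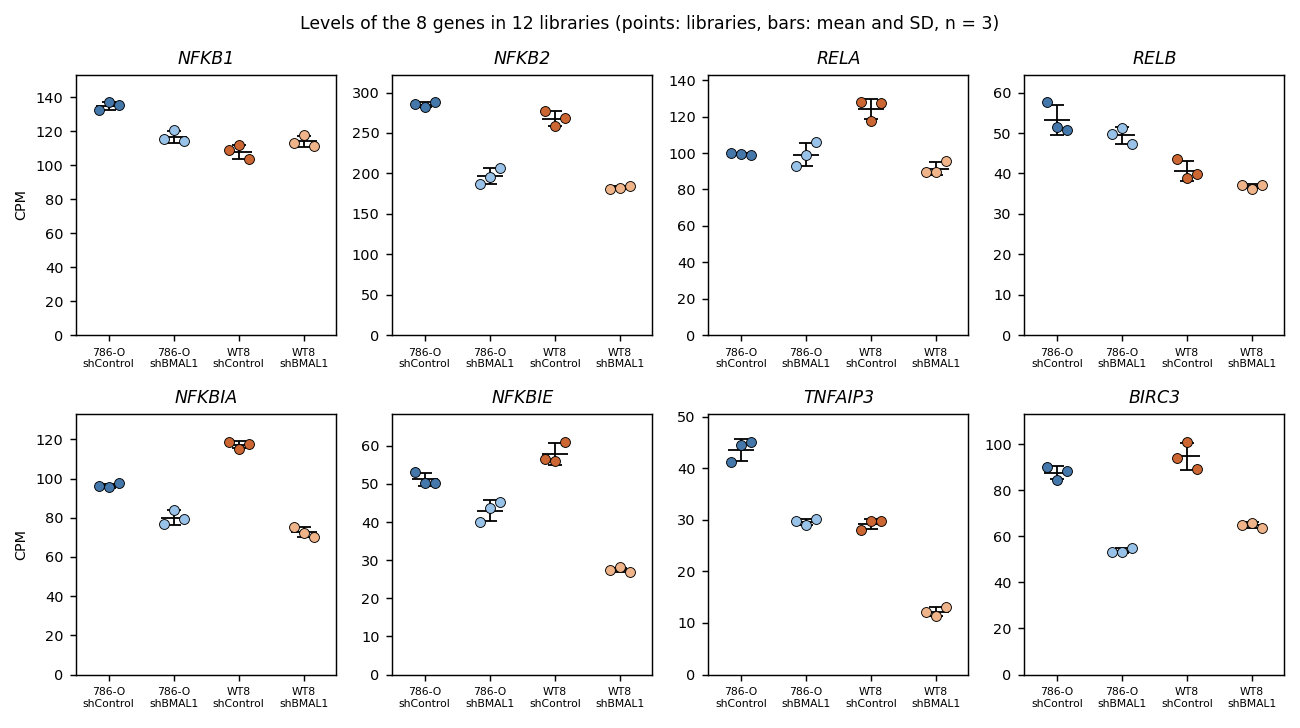
CPM of the 8 genes in the 12 libraries, 1 panel per gene with its own axis from 0, where points are libraries and bars are the mean and SD of 3. NFKB2 lay at 187 to 207 CPM in 786-O shBMAL1 against 283 to 288 in 786-O shControl, and TNFAIP3 at 11.3 to 13.1 CPM in WT8 shBMAL1 against 28.0 to 29.8 in WT8 shControl.

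Counted together, 6 of the 8 genes were called lower and 0 higher with shBMAL1 in 786-O at an adjusted p under 0.1 in edgeR. Over all genes tested in that line 48.9% were called, 24.4% lower and 24.5% higher. In WT8, 7 of the 8 were called lower and 0 higher, where 69.8% of all genes were called, 36.9% lower and 32.9% higher. At an unadjusted p under 0.05 in edgeR, 0 of the 8 rose in either line. The median log2 change of the 8 was -0.26 in 786-O and -0.55 in WT8, against 0.00 and -0.04 over all genes. Without regard to sign, the median size of change over all genes was 0.25 in 786-O and 0.45 in WT8. The share of all genes with a smaller change ran from 2.06% for RELA to 84.5% for BIRC3 in 786-O. In WT8 it ran from 11.0% for NFKB1 to 84.0% for TNFAIP3. The 2 comparisons share no library. Since most genes passed the test in WT8, sizes were also tested against 1.5-fold. In that edgeR test 1 of the 8 was called in 786-O, BIRC3, and 3 in WT8, NFKBIA, NFKBIE and TNFAIP3. Of all 16838 genes tested, 990 were called in 786-O and 4314 in WT8.

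**Figure D3:**
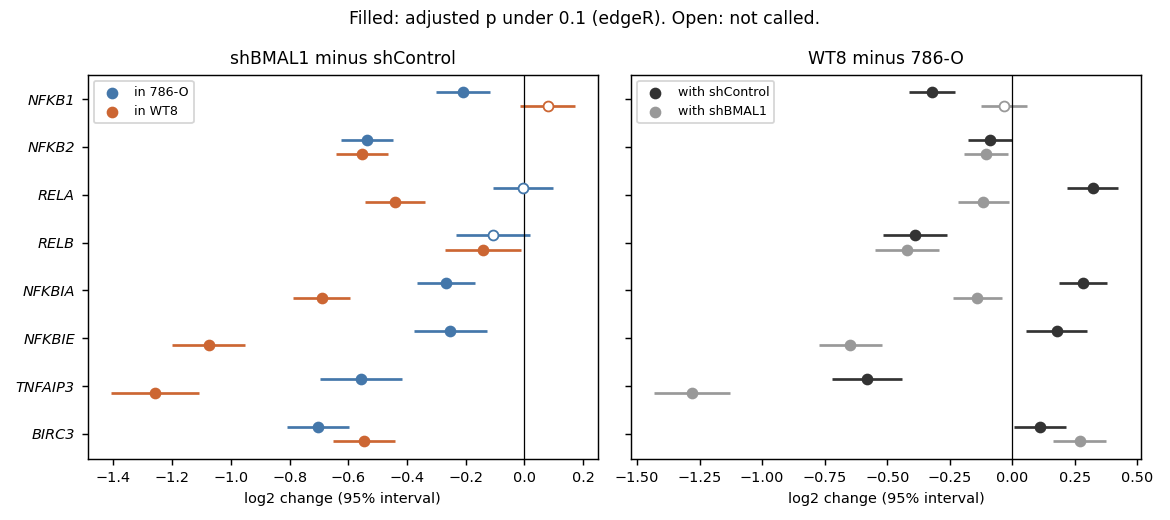
Log2 changes of the 8 genes with 95% intervals, for shBMAL1 against shControl in each line (left) and WT8 against 786-O with each shRNA (right), with filled points for an adjusted p under 0.1 and open points for genes not called. NFKB2 had -0.54 and -0.55 in the 2 lines, while NFKBIE had -0.25 in 786-O and -1.08 in WT8.

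Whether the response to shBMAL1 differed between the lines was tested as an interaction, the log2 change in WT8 minus that in 786-O. The decrease of 4 genes was larger in WT8, which were RELA (-0.44, SE 0.07, edgeR adjusted p 3.12e-06), NFKBIA (-0.42, SE 0.07, adjusted p 2.32e-06), NFKBIE (-0.82, SE 0.09, adjusted p 4.21e-10) and TNFAIP3 (-0.70, SE 0.10, adjusted p 3.58e-07). For NFKB1 the difference was in the other direction, at 0.29 (SE 0.06, edgeR adjusted p 3.06e-04). That of BIRC3 was also positive, at 0.16 (SE 0.07, adjusted p 0.0719), and was no longer called with DESeq2 size factors (0.14), with upper-quartile factors (0.10), with DESeq2 (0.14) and without any 1 of 5 libraries, which were 786-O shControl replicate 1 (0.14), 786-O shBMAL1 replicate 1 (0.15), WT8 shControl replicates 1 and 3 (0.15 and 0.12) and WT8 shBMAL1 replicate 2 (0.16). NFKB2 (-0.02, 95% interval -0.14 to 0.11, edgeR adjusted p 0.865) and RELB (-0.03, interval -0.21 to 0.15, adjusted p 0.790) were not called. Thus 2 of the 8 were called higher and 4 lower, where 56.0% of all genes were called, 27.4% higher and 28.6% lower. The median of the 8 was -0.23, against -0.03 over all genes. Beside these values, ARNTL fell more in WT8 (interaction -0.86, SE 0.19, edgeR adjusted p 3.68e-04) and VHL fell in WT8 by 0.60 on the log2 scale with shBMAL1, and the part of either in these differences was not tested.

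The 2 lines were then compared with the same shRNA. With shControl, RELA (124 against 99.5 CPM, log2 0.32, SE 0.05), NFKBIA (117 against 96.4 CPM, 0.28, SE 0.05) and NFKBIE (57.9 against 51.2 CPM, 0.18, SE 0.06) were higher in WT8. NFKB1 (108 against 135 CPM, log2 -0.32, SE 0.05), RELB (40.7 against 53.3 CPM, -0.39, SE 0.06) and TNFAIP3 (29.2 against 43.6 CPM, -0.58, SE 0.07) were lower. The edgeR adjusted p of these 6 ran from 2.18e-09 for TNFAIP3 to 0.00836 for NFKBIE, and the libraries of the 2 lines did not overlap. NFKB2 (268 against 285 CPM, log2 -0.09, SE 0.04, edgeR adjusted p 0.0555) and BIRC3 (94.8 against 87.7 CPM, 0.11, SE 0.05, adjusted p 0.0466) passed the threshold as well, though the BIRC3 libraries overlapped. The NFKB2 call was lost with DESeq2 size factors (-0.07), with DESeq2 (-0.07), when only the 2 groups were fitted (-0.08), without 786-O shControl replicate 3 (-0.09) and without WT8 shControl replicate 2 (-0.07), and the sign turned with upper-quartile factors (0.02). The BIRC3 call was lost with no filter (0.10), without 786-O shControl replicate 2 (0.08) and without WT8 shControl replicate 2 (0.06). In all, 4 of the 8 were called higher and 4 lower in WT8, where 79.5% of all genes were called, 39.3% higher and 40.1% lower, and the median of the 8 was 0.01. All 8 changes were smaller than the median size of change over all genes, 0.61 on the log2 scale. The share of all genes with a smaller change ran from 8.95% for NFKB2 to 47.9% for TNFAIP3.

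With shBMAL1 in both lines, most of the 8 were lower in WT8. TNFAIP3 had 12.2 ± 0.916 CPM (SD, n = 3) in WT8 and 29.6 ± 0.614 in 786-O (log2 -1.28, SE 0.07, edgeR adjusted p 2.32e-17). NFKBIE had 27.5 ± 0.625 and 43.0 ± 2.67 CPM (log2 -0.65, SE 0.06, adjusted p 2.24e-11), and RELB 36.9 ± 0.603 and 49.5 ± 2.06 CPM (log2 -0.42, SE 0.06, adjusted p 3.00e-07). BIRC3 alone of the 8 was higher in WT8, with 64.9 ± 1.15 against 53.8 ± 1.04 CPM (log2 0.27, SE 0.05, edgeR adjusted p 2.75e-05). NFKBIA (-0.14), NFKB2 (-0.11) and RELA (-0.12) were also called lower, the RELA libraries with overlap, and NFKB1 (-0.03, 95% interval -0.13 to 0.06, adjusted p 0.540) was not. These are 1 higher and 6 lower of 8, where 73.0% of all genes were called, 35.9% higher and 37.1% lower. The 3 smaller calls were lost with upper-quartile factors (-0.09, -0.06 and -0.07). NFKBIA was also lost without 786-O shBMAL1 replicate 2 (-0.10), NFKB2 without 786-O shBMAL1 replicate 3 (-0.07), and RELA without that library (-0.06) or WT8 shBMAL1 replicate 1 (-0.10) or 2 (-0.09). The comparisons between lines use the same libraries as those of shBMAL1, so their values are set side by side only.

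The pathway around the 8 genes was read from a list of 50 other signalling components, 49 of them tested, and TNFRSF1B, the untested one, had 0 to 2 counts. Genes of this list and the next are ranked by log2 change among the called genes that averaged 50 or more counts. With shBMAL1 in 786-O, 15 rose and 16 fell (median log2 change 0.00), so that 63.3% of the 49 were called against 48.9% of all genes. Those with the largest rise were BCL3, an atypical IκB protein that binds the NFKB1 and NFKB2 products (26.3 to 46.0 CPM), IL1R1, the interleukin 1 receptor (20.7 to 34.8 CPM), and NFKBIZ, another atypical IκB protein (43.7 to 64.8 CPM). TLR3, a receptor for double-stranded RNA (9.11 to 2.76 CPM), the IκB kinase family member IKBKE (47.5 to 33.0 CPM) and the adaptor kinase IRAK4 (11.9 to 8.45 CPM) had the largest falls. In WT8, 16 rose and 20 fell (median -0.04), or 73.5% against 69.8% of all genes. Here the inhibitors NFKBID (4.16 to 6.40 CPM) and NFKBIB (36.6 to 53.1 CPM) and the regulatory IκB kinase subunit IKBKG (28.9 to 43.4 CPM) rose most, while NFKBIZ (115 to 49.0 CPM), IRAK2 (15.4 to 7.33 CPM) and TLR3 (6 to 16 counts against 1 to 4) fell most. The response of NFKBIZ thus had opposite signs in the 2 lines, 0.57 in 786-O and -1.23 in WT8, with an interaction of -1.79 (SE 0.08, edgeR adjusted p 3.17e-20).

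Against the inhibitors of the 8, NFKBIB, which encodes IκBβ, had a log2 change of 0.07 in 786-O (edgeR adjusted p 0.389) and 0.54 in WT8 (adjusted p 1.39e-09), and the deubiquitinase CYLD, which opposes the same signals as TNFAIP3, one of -0.41 in 786-O (adjusted p 1.69e-07) and -0.51 in WT8 (adjusted p 1.68e-09). BIRC2, the neighbour and relative of BIRC3, had 0.18 in 786-O (adjusted p 0.00315) and -0.08 in WT8 (adjusted p 0.170), and these genes were chosen after their values were seen. REL, the remaining subunit with a transactivation domain, was low in all groups at 82 to 137 counts and was called in neither line (-0.19, adjusted p 0.430 in 786-O and 0.26, adjusted p 0.204 in WT8, edgeR). In the interaction 10 of the 49 were called higher and 19 lower (median -0.10), or 59.2% against 56.0% of all genes, led by IKBKE (1.04), NFKBID (0.80) and CD40 (0.52), and by NFKBIZ, the TNF receptor gene TNFRSF1A (-1.26) and IRAK2 (-1.11). Between the lines, 15 were called higher and 24 lower in WT8 with shControl (median -0.10) and 15 and 27 with shBMAL1 (median -0.14). These were 79.6% and 85.7% of the list, against 79.5% and 73.0% of all genes, so that the share with shControl was that of all genes. With shControl the adaptor gene TRAF5 (7.91 against 2.57 CPM), NFKBIZ (115 against 43.7 CPM) and IL1R1 (46.7 against 20.7 CPM) were the highest over 786-O, while TLR3 (0.285 against 9.11 CPM) and TRAF1 (11.7 against 32.7 CPM) were lower. With shBMAL1 they were TRAF5 (7.88 against 2.79 CPM), NFKBID (6.40 against 4.07 CPM) and IRAK1 (579 against 432 CPM), with TLR3 (1 to 4 counts against 93 to 101) and TRAF1 (6.99 against 27.0 CPM) lower. The lipoprotein receptor gene TLR2 had 0 counts in all 6 WT8 libraries, which allows up to 3 counts in each, against 142 to 170 counts in 786-O shControl and 101 to 125 in 786-O shBMAL1.

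Known target genes of NF-kB were read from a list of 40, of which 38 were tested, and the untested CXCL10 and IL1A had 0 to 15 and 0 to 5 counts. With shBMAL1 in 786-O 10 rose and 16 fell (median log2 change -0.07), or 68.4% of the 38 against 48.9% of all genes. The largest falls were in the cytokine gene LTB (5.22 to 0.508 CPM), the chemokine gene CCL5 (1.95 to 0.374 CPM) and the protease gene MMP9 (8.28 to 2.94 CPM), and the largest rises in the survival gene BCL2A1 (3.75 to 6.74 CPM) and the chemokine genes CCL2 (19.0 to 29.2 CPM) and CXCL2 (2.93 to 3.84 CPM). In WT8, 2 rose and 28 fell (78.9% called, against 69.8% of all genes), with a median of -0.72, and of -0.74 with the 4 genes at or under 3 counts per library in 1 of the groups set to that floor and 1 at the floor in both left out. The complement gene C3 fell from 58.7 to 4.50 CPM, MMP9 from 1.68 to 0.205 CPM and CCL5 from 221 to 291 counts to 0 to 3. The 2 that rose were the cytokine gene IL32 (71.2 to 281 CPM) and the dendritic cell marker gene CD83 (3.27 to 4.73 CPM). IL1B, which has too few counts for the ranking and was chosen after its values were seen, had 156 to 175 counts in WT8 shControl and 0 to 3 in each of the other groups. In the interaction, 5 had a positive and 23 a negative call (73.7% called, against 56.0% of all genes, median -0.52, or -0.37 without the 5 genes at the floor in some group). IL32 (2.02), CD83 (1.27) and the urokinase gene PLAU (0.54) had the largest positive values and C3 had -3.01. For PLAU this was a smaller fall, from 246 to 101 CPM in 786-O and from 137 to 82.3 CPM in WT8. CCL5 and BCL2A1, whose fitted values were also among the lowest, are given by their counts only, with BCL2A1 at 119 to 139 and 230 to 240 counts in 786-O without and with shBMAL1 and at 0 to 11 and 0 to 2 in WT8.

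Between the lines 10 target genes were called higher and 26 lower in WT8 with shControl (median -0.87), and 6 and 30 with shBMAL1 (median -1.47, or -1.62 with genes at the floor set to it). In both, 94.7% of the list was called, against 79.5% and 73.0% of all genes. The acute phase gene SAA1 (252 against 13.2 CPM), TNF (13.7 against 2.56 CPM) and CCL5 (6.99 against 1.95 CPM) were the highest over 786-O with shControl. The adhesion gene VCAM1 (0.370 against 202 CPM) and CCL2 (0.900 against 19.0 CPM) were far lower, as was BCL2A1. With shBMAL1 SAA1 (76.3 against 6.64 CPM), TNF (5.67 against 1.31 CPM) and CXCL2 (5.00 against 3.84 CPM, with overlap) were higher, and VCAM1 (0.152 against 259 CPM) and CCL2 (0.943 against 29.2 CPM) lower.

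**Figure D4:**
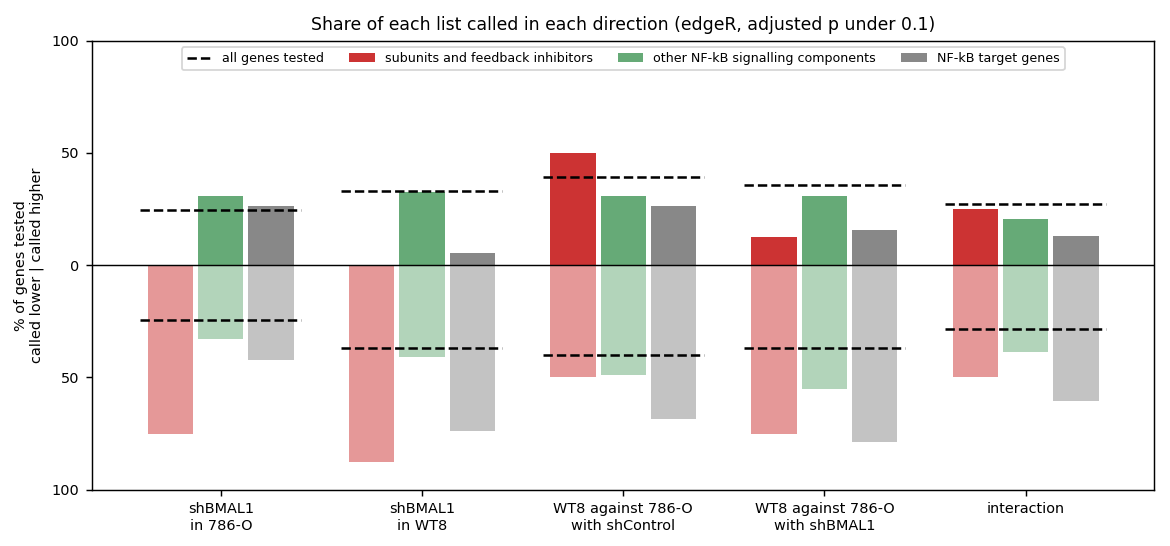
Percent of the genes tested of each list called higher (up, dark) or lower (down, light) at an adjusted p under 0.1 in edgeR, for the 8 subunits and feedback inhibitors, 49 other signalling components and 38 target genes, with dashed lines for all 16838 genes tested. With shBMAL1 in WT8, 7 of the 8 genes and 28 of 38 targets were lower, against 36.9% of all genes.

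Across the 12 libraries, which share their group structure and depth, the 8 genes varied in different ways. On log2 CPM, NFKBIA was most like NFKBIE (Pearson r 0.89) and RELA (0.88), NFKB2 was like BIRC3 (0.87) and NFKBIA (0.86), and TNFAIP3 like NFKBIE (0.87) and RELB (0.82). NFKB1 and RELA had a negative value (-0.46), and RELB and BIRC3 one near 0 (-0.01). Over 12940 genes with enough counts, the profile nearest to NFKB1 was that of CLTCL1 (r 0.97), to NFKB2 SSR2 (0.99), to RELA CDKN2C (0.98) and to RELB MGRN1 (0.97). C20orf24 was nearest to NFKBIA (0.99), TMEM173 to NFKBIE (0.99), DDIT4 to TNFAIP3 (0.99) and HKDC1 to BIRC3 (0.99). These values carry no test.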

How the data were processed

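RNA-seq of 12 cultures (2 lines, 2 shRNAs, 3 replicates) gave the estimated counts per gene that the authors deposited, linear and without scaling between libraries. Per the labels the libraries were stranded mRNA libraries. According to the study's methods, they were sequenced as read pairs, aligned to GRCh37 with SeqMan NGen and exported from ArrayStar, whereas the submitters' processing notes name hg38, STAR and DESeq2. The annotation, the use of strand and the treatment of reads with several alignments are not given in the sources used here. A value of 0.028 stood in for 0 (47.0% of the values) and was set to 0. Of the other values 5.67% were not whole, and all were rounded. The table had 38074 lines for 38021 names, and lines of the same name were summed. Each of the 8 genes had 1 line. Counts of 2 (14754) were more frequent than counts of 1 (11117), so mates were apparently counted separately and there are fewer fragments than counts.

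Totals were 33182025 to 36477509 counts per library. filterByExpr kept 16838 of 26938 genes. With TMM scaling (factors 0.948 to 1.04), all 12 libraries entered 1 model of 4 group means, tested by the robust quasi-likelihood test of edgeR 4.0.16 in R 4.3.3, with Benjamini-Hochberg adjustment across the genes tested. Genes with an adjusted p under 0.1, the rate used by the study, were called. The SE was derived from the log2 change and the F value. The common biological coefficient of variation was 5.70%. Replicates differed by more than counting noise (chi-square per gene 4.50 to 12.6). The test was checked on simulated counts with the same spread for every gene and few genes changed. Changes as broad as those in these data were not simulated. Alternatives were other scalings, no filter, DESeq2 1.42.0, limma-voom (limma 3.58.1), a replicate block, a test against 1.5-fold, no robust estimation, a threshold of 0.05, only the groups compared, and leaving out each library.

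The 8 genes and the lists were chosen with earlier results of these data known. The lists of signalling components, targets and markers were written from general knowledge. From the lists, the called genes that averaged 50 or more counts were ranked by log2 change in each comparison, and the top 3 in each direction were named, and other genes are said to have been chosen after their values were seen. Gene positions, lengths and overlaps are from GENCODE on GRCh37, and promoter sequences from RefSeq on GRCh38.p14. Levels per kb are CPM divided by the length of the canonical transcript. Medians with genes at a floor set those with at most 3 counts in every library of a group to 3 counts per library. No pairing by replicate number was detected, since the 18 correlations between same-numbered libraries ran from -0.05 to 0.05. This does not show whether cultures of the same number were handled together.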

Additional observations from a re-analysis of the deposited data

Results flagged for a closer look

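For 6 of the 8 genes the response to shBMAL1 differed between the lines, by the interaction term of the edgeR model. The log2 change in WT8 minus that in 786-O was 0.29 for NFKB1, which fell in 786-O and was not called in WT8, -0.44 for RELA, which was not called in 786-O and fell in WT8, -0.42 for NFKBIA, -0.82 for NFKBIE and -0.70 for TNFAIP3, which fell in both lines and more so in WT8, and 0.16 for BIRC3, which fell in both lines. The values and tests are in the report, and that of BIRC3 was lost under several alternatives. Over all genes tested 56.0% had such a difference.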

How the results depend on the processing

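Of 832 single-gene alternatives for the 8 genes, 760 kept their direction and side of the threshold, 56 lost the call, 4 gained one and 12 changed sign. The sign changes were of small values. RELA with shBMAL1 in 786-O became 0.00577 with DESeq2 size factors and with DESeq2 and 0.038 without 786-O shBMAL1 replicate 1. NFKB2 and NFKB1 between the lines became 0.022 (shControl) and 0.018 (shBMAL1) with upper-quartile factors. The NFKB2 interaction became 9.5e-04 with no filter, 0.030 without 786-O shBMAL1 replicate 3, 0.010 without WT8 shControl replicate 1 and 0.0046 without WT8 shBMAL1 replicate 1. The RELB interaction became 0.00662, 0.00605 and 0.019 without 786-O shControl replicate 3, 786-O shBMAL1 replicate 2 and WT8 shControl replicate 1. The cause was not tested. Upper-quartile factors moved the median of all genes to -0.12 for shBMAL1 in WT8 and to 0.11 for WT8 against 786-O with shControl, and left 4 of the 8 genes called between the lines with shBMAL1.

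Results tested against 1.5-fold are given in the order shBMAL1 in 786-O, shBMAL1 in WT8, lines with shControl, lines with shBMAL1 and interaction. Of the 16838 genes tested, 990, 4314, 6992, 5024 and 3133 were called. Of the 8 genes 1, 3, 0, 1 and 1 were called, and of the signalling components 3, 8, 18, 14 and 6. Fewer genes pass since small changes no longer count. Of the targets 7, 20, 28, 25 and 16 were called. For the count of 0, edgeR's test against no change and DESeq2 called 8 and 7 of the 8 genes.

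Without 1 library at a time, RELA with shBMAL1 in 786-O ran from -0.059 to 0.038, the NFKB2 interaction from -0.043 to 0.030 and the RELB interaction from -0.085 to 0.019. Leaving out 1 library at a time also gave, in the same order, 7354 to 8313, 11282 to 11939, 13062 to 13655, 11881 to 12477 and 9028 to 9233 genes called, 6 to 7, 6 to 8, 6 to 8, 5 to 7 and 5 to 6 of the 8, 25 to 31, 34 to 36, 38 to 39, 38 to 43 and 24 to 28 signalling components, and 23 to 26, 28 to 30, 34 to 37, 34 to 37 and 27 to 30 targets. No pairing of the libraries by replicate number was detected. With the replicate block 8054, 11624, 13268, 12162 and 9247 genes were called, and no call of the 8 genes changed. In 3 of 18 comparisons a library correlated best with its own number, all 3 of them between 786-O shControl and WT8 shBMAL1. At an adjusted p under 0.05, NFKB2 between the lines with shControl and the BIRC3 interaction were not called, which left 7 and 5 of the 8. Outside the 1.5-fold test, every call of the 8 genes that was lost or gained was of a log2 value of 0.16 or less in size. The cause of these lost and gained calls was not tested.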
